A study of Homo sapiens with 6 samples.

Results

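The ZBTB16 locus was described from every glucocorticoid receptor (GR) peak centred between 113880000 and 114170000 on chromosome 11 (hg19), the gene body with about 50 kb on each side. This window of 290 kb held 86 of the 116356 peaks in the 12 deposited peak lists. Merging overlapping peaks (at least 1 bp) gave 24 of the 43893 sites of the whole series. The window was chosen by the density of its dexamethasone peaks, among the highest in both cell lines, so its peak counts and the lists that call each site are given as a description, without a test.

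ZBTB16, also named PLZF, encodes a zinc-finger transcription factor with a BTB/POZ domain that mostly represses its targets. It is known as a strongly glucocorticoid-induced gene in several human cell types and takes part in osteoblast differentiation. GR rests largely outside the nucleus without ligand, and after binding a glucocorticoid it binds DNA at glucocorticoid response elements, many of them in introns or far from a promoter. The mineralocorticoid receptor (MR) is a close relative that recognises the same kind of element. ZBTB16 RNA was not measured here, so the data speak of where GR peaks were called and not of the gene's expression.

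GR was immunoprecipitated from a pair of stable human lines made for the study from U-2OS, an osteosarcoma line. In the MR/GR cell the labels name MR beside GR, and in the GR cell they name GR alone. The groups were the MR/GR cell with dexamethasone (a synthetic glucocorticoid, 100 nM for 2 hr), the GR cell with the same treatment, the MR/GR cell with vehicle (DMSO), and the GR cell with vehicle, each with 3 numbered peak lists. Each receptor setting was 1 line, how its receptors were expressed and whether it is 1 clone are not given in the sources used here, and nothing says whether the lists of a group came from separate cultures, so spreads may be technical. The lists hold 3713 to 10459 peaks in the treated MR/GR cell, 26191 to 37650 in the treated GR cell, 11 to 132 in the vehicle MR/GR cell and 122 to 238 in the vehicle GR cell. They give positions with no height or score, and the read depth is unknown, so a site that is not listed may be unbound or may lie under the calling threshold.

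After dexamethasone, both lines had GR peaks in the ZBTB16 gene body and in its flanks. Sites in the gene body lay from 13 to 162 kb from its lower-coordinate end. Those in at least 2 MR/GR-cell lists lay from 13 to 139 kb. With vehicle, no list of either line had a peak in the window. The treated MR/GR cell had 10, 13 and 10 peaks in lists 1, 2 and 3, and the vehicle MR/GR cell had 0 in each of 3 lists. The treated GR cell had 22, 17 and 14 peaks, and the vehicle GR cell had 0 in each of 3 lists. Every treated list was thus above every vehicle list of its line. The treated lists averaged 11 ± 1.73 peaks in the MR/GR cell and 17.7 ± 4.04 in the GR cell (SD, n = 3 lists each). Against a floor of 3 peaks over the 3 vehicle lists of a line together, the summed treated peaks were at least 11-fold higher in the MR/GR cell (33 peaks) and at least 17.7-fold higher in the GR cell (53 peaks).

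The short vehicle lists limit what their empty window shows. In the treated MR/GR cell the locus held 0.158% of all peaks, and 0 of 183 vehicle peaks in that line allows, by the same floor, a share of up to 1.64%. In the treated GR cell it held 0.0559% of all peaks, and 0 of 588 vehicle peaks allows up to 0.51%. At the treated share, the vehicle lists together would hold 0.29 locus peaks in the MR/GR cell and 0.329 in the GR cell. A lower share with vehicle was therefore not detectable at this list length, and these limits cover counting error only. Of the locus sites in at least 2 treated lists, 0 of 10 in the MR/GR cell and 0 of 18 in the GR cell had a vehicle peak, where the background over all such sites was 0.268% in the MR/GR cell and 0.751% in the GR cell.

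**Figure D1:**
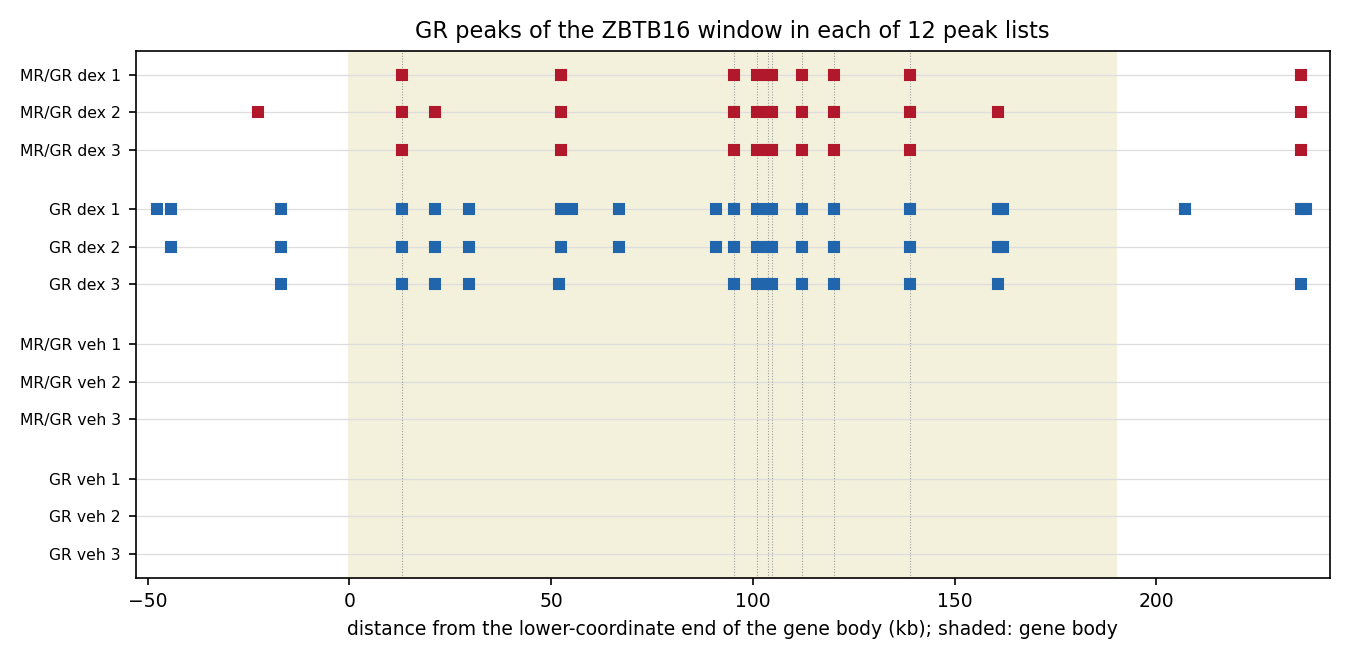
Each square is a site called in a peak list, placed by its distance in kb from the lower-coordinate end of the gene body (shaded), with 1 row per list and dotted lines at the 8 sites called in all 6 dexamethasone lists. The 6 dexamethasone lists share a run of sites between 95.4 and 120 kb, and the 6 vehicle lists are empty.

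The map of the lists shows 8 sites that all 6 dexamethasone lists called, and each of them lay in the gene body. ZBTB16 reads toward higher coordinates, and distances are given from the lower-coordinate end of the gene body, which the window's own definition puts at about 113930000. The lowest of the 8, at 113942805 to 113943228, lay 13 kb into the gene body. The next was 82.4 kb farther on, at 114025142 to 114025566. It opened a run of 6 such sites whose centres spanned 24.8 kb, with the others at 114030676 to 114031125, 114033539 to 114033962, 114034620 to 114035056, 114042066 to 114042493 and 114049920 to 114050343. The closest neighbours in this run, the sites at 114033539 and 114034620, were 1.09 kb apart, and the widest step was 7.89 kb. The last of the 8 stood 18.8 kb beyond the run, at 114068671 to 114069189, 139 kb into the gene body.

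Sites called in all 6 lists made up 8 of the 24 at the locus, where the background over all 43713 dexamethasone sites was 6.90%. The rule used this contrast, so this count, and the densities of the same sites that follow, only describe what the window was chosen for. Elsewhere in the genome, windows of 290 kb tiled along the chromosomes held at most 7 such sites, and the median of the windows with at least 1 was 1. The run of 6 sites was chosen after its values were seen. Over the genome, 1 run of 6 consecutive sites of this kind was as tight, and it was this one. The median distance from a site of all 6 lists to its nearest like neighbour was 6.49 kb at the locus (8 sites, from 1.09 to 82.4 kb) and 142 kb over the 3016 such sites with a neighbour on their chromosome.

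Another 2 of the 24 sites were in 3 of 3 MR/GR-cell lists and in 2 of 3 GR-cell lists, a pattern with a background of 0.217%. The site at 113982155 to 113982547, 52.4 kb into the gene body, was missing from GR-cell list 3. That list had instead a peak at 113981636 to 113982059, which overlapped no other peak and whose centre lay 0.517 kb from that of the site. The other of these sites, at 114165589 to 114166026 in the upper flank, was missing from GR-cell list 2. With the 8 above, these were the 10 sites of the treated MR/GR cell that at least 2 of its lists called, and each of the 10 was in all 3, where the background was 54.1% of such sites.

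The remaining 14 sites were called more often in the GR cell, apart from 1. The MR/GR cell lacked, in 3 of 3 lists, the sites at 113912899 to 113913348 in the lower flank and 113959526 to 113959962 in the gene body, which every GR-cell list called. They were 2 of the 24 sites, where the background for this pattern was 34.4% of all dexamethasone sites. The sites at 113951015 to 113951438 and 114090623 to 114091046 were in 1 MR/GR-cell list, list 2, the longest of that line, and in 3 of 3 GR-cell lists, 2 of 24 against a background of 6.20%. In no MR/GR-cell list but in GR-cell lists 1 and 2 were 4 sites, at 113885540 to 113885977 in the lower flank and 113996656 to 113997022, 114020727 to 114021098 and 114091794 to 114092216 in the gene body. That is 4 of 24 against a background of 15.4%. No site was in 3 of 3 MR/GR-cell lists and absent from the GR cell, a pattern with a background of 0.144%.

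The other 6 sites were in 1 list each, 6 of 24 against a background of 28.0%. GR-cell list 1, the longest of the series, held 4 of them, at 113882220 to 113882573 in the lower flank, 113985087 to 113985440 in the gene body, and 114136991 to 114137344 and 114166869 to 114167222 in the upper flank. GR-cell list 3 held the peak at 113981636 named above. MR/GR-cell list 2 held 113907147 to 113907430 in the lower flank, the only site of the 24 that was in an MR/GR-cell list and in no GR-cell list.

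Sites were found in the flanks as well as in the gene body, and the sites of all 6 lists were in the gene body. The gene body held 17 sites in 190 kb, or 8.95 per 100 kb, and the flanks held 7 in 100 kb, or 7 per 100 kb. Of the 8 sites in all 6 lists, 8 were in the gene body and 0 in the flanks. Of the 10 sites in at least 2 MR/GR-cell lists, 9 were in the gene body and 1 in the upper flank. Of the 18 sites in at least 2 GR-cell lists, 15 were in the gene body and 3 in the flanks. The density of dexamethasone sites over the genome, counted between the outermost peaks of each chromosome, was 1.46 per 100 kb. Per site, the nearest dexamethasone site was at a median of 3.91 kb at the locus (from 0.517 to 28.7 kb) and 14.6 kb over the genome. The widest empty stretch inside the window, 45.2 kb between neighbouring centres, ran from the site at 114091794 to the one at 114136991 across the upper end of the gene body. Exons and introns were not assigned to sites, since an hg19 annotation was not used here. The gene table at hand, of GRCh38, serves for names only and places HTR3A and NNMT as the protein-coding neighbours of ZBTB16 on its lower and higher side. Flank sites were not assigned to ZBTB16 or to a neighbour.

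The lists of the MR/GR cell nested in each other at this locus. All 10 sites of list 1 were in lists 2 and 3, although list 1 held 3713 peaks in all, list 2 10459 and list 3 6660. Averaged over the 6 ordered pairs of MR/GR-cell lists, 92.3% of a list's locus sites were in the other list (from 76.9% to 100%), and 67.4% of its sites genome-wide (from 33.2% to 93.5%). Among GR-cell lists the same means were 80.9% at the locus and 81.8% genome-wide. From MR/GR-cell lists to GR-cell lists, 91.3% of locus sites were shared on average over 9 pairs (from 84.6% to 100%), and 85.3% genome-wide. From GR-cell lists to MR/GR-cell lists the means were 58.1% at the locus (from 45.5% to 78.6%) and 18.4% genome-wide (from 9.37% to 28.4%). Wider peaks overlap more easily, and each list has a peak width of its own, from 280 to 304 bp in the treated MR/GR cell and from 354 to 424 bp in the treated GR cell. The window was chosen for dense peaks in both lines, which fixes the shares at the locus in part. Nothing is read from them about the locus.

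The comparison between the lines asks how GR binding differs where MR is present. At the locus the treated MR/GR cell had fewer peaks than the treated GR cell, 11 ± 1.73 against 17.7 ± 4.04 per list (SD, n = 3 lists each), a ratio of 0.623. Its highest list, with 13 peaks, was below the lowest GR-cell list, with 14. On the log2(peaks + 1) scale the difference was -0.62, with a pooled SD between lists of 0.261. Over the whole genome the ratio of mean list lengths was 0.22. Whether the locus differs from the genome in this ratio was not tested.

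Relative to list length, the order of the lines was the other way round. The window was chosen for dense peaks in both lines, which fixes this order in part, so the values are a description only. In the treated MR/GR cell the locus held 2.69 peaks per 1000 peaks of list 1 (exact 95% binomial interval 1.29 to 4.95), 1.24 in list 2 (0.662 to 2.12) and 1.5 in list 3 (0.72 to 2.76). In the treated GR cell it held 0.584 in list 1 (0.366 to 0.885), 0.55 in list 2 (0.32 to 0.88) and 0.535 in list 3 (0.292 to 0.897). Every MR/GR-cell list was above every GR-cell list, but the intervals of MR/GR-cell lists 2 and 3 overlapped those of the GR cell, and they cover counting error only. The means were 1.81 ± 0.774 in the MR/GR cell and 0.556 ± 0.0255 in the GR cell (SD, n = 3 lists each), a log2 difference of 1.62. The highest MR/GR-cell value belonged to its shortest list, and the highest GR-cell value to its longest. The part of list length in the difference between the lines was not tested.

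**Figure D2:**
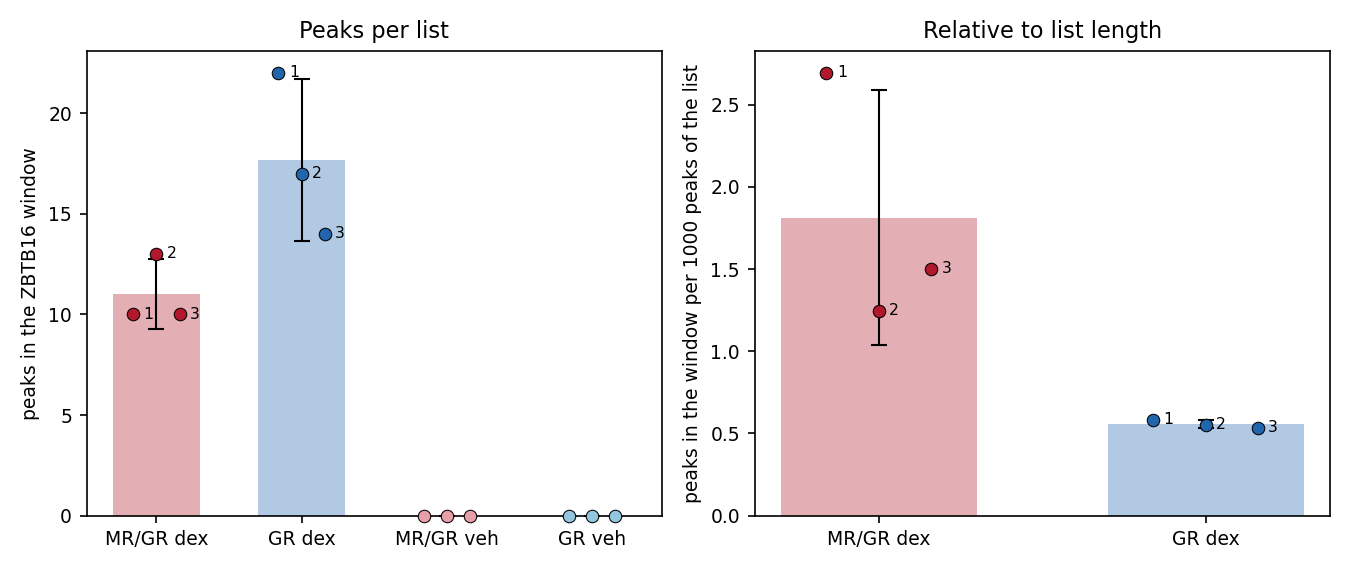
Left, peaks in the ZBTB16 window in each list; right, the same per 1000 peaks of the list, for the dexamethasone lists. Points are lists with their numbers, bars are means and error bars SD (n = 3 lists); the MR/GR cell is lower on the left (10 to 13 against 14 to 22 peaks) and higher on the right (1.24 to 2.69 against 0.535 to 0.584).

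By sites, 10 of the 18 that at least 2 GR-cell lists called were also in at least 2 MR/GR-cell lists, or 55.6% (Wilson 95% interval 33.7 to 75.4), where the background over all 30365 GR-cell sites was 17.9%. The interval treats neighbouring sites as independent, which they need not be. Sites are not replicates, so it is no test of the locus against the background. The background was 17.0% without MR/GR-cell list 1, 10.5% without list 2 and 10.9% without list 3, when both lists left had to call a site. The share at the locus could only stay 55.6% there, since each of its 10 MR/GR-cell sites was in all 3 lists. Without GR-cell lists 1, 2 and 3 the share was 66.7%, 69.2% and 52.9%, against backgrounds of 22.0%, 21.2% and 19.0%. The count of 18 was 12 without GR-cell list 1. In the other direction, the GR cell called all 10 sites of the MR/GR cell, where the background was 90.9% of 5965. The rule took places that are dense in both lines, which fixes both directions in part, and nothing is read from them about the locus. Distances were also taken to the nearest site of at least 2 MR/GR-cell lists, leaving out sites that only 1 of them called. The 11 sites that no MR/GR-cell list called lay at a median of 16.7 kb (from 0.517 to 60.6 kb). The 10 sites of at least 2 MR/GR-cell lists lay at 7.66 kb from the next such site (from 1.09 to 96.9 kb), and the ranges overlap.

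Set among windows of its own length tiled over the genome, the locus stood at or near the top in both lines, which is what it was chosen for. Its 33 peaks over the 3 treated MR/GR-cell lists ranked 1 of 5289 windows with a peak, where the median was 3 and the next highest 29. Its 53 peaks over the 3 treated GR-cell lists ranked 4 of 9085, level with 2 others, where the median was 9 and the highest 56. The tiled windows have fixed edges, while the ZBTB16 window was placed on the gene, which favours it. By list the rank was 1, 2 and 1 in MR/GR-cell lists 1, 2 and 3, and 1, 6 and 9 in GR-cell lists 1, 2 and 3. These are the best ranks where windows tied, with 2 other windows at the count of MR/GR-cell list 3, 2 at that of GR-cell list 2 and 7 at that of GR-cell list 3. The 5 other windows with at least as many GR-cell peaks had 7 to 29 MR/GR-cell peaks, with a median of 24, against 33 at the locus.

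The windows most like the locus were found by the distance between peak counts over all 12 lists on the log2(peaks + 1) scale. The nearest was chromosome 2, 28710001 to 29000000, at a distance of 0.475. It had 8, 11 and 10 peaks in the treated MR/GR cell and 20, 18 and 17 in the treated GR cell. Chromosome 3, 14210001 to 14500000, followed at 0.923 with 8, 9 and 7 peaks in the treated MR/GR cell and 16, 13 and 14 in the treated GR cell. Chromosome 12, 124990001 to 125280000, was at 1.01 with 7, 11 and 7 peaks in the treated MR/GR cell and 13, 15 and 13 in the treated GR cell. All 3 had 0 vehicle peaks, and they held 6, 7 and 7 sites of all 6 lists, against 8 at the locus. Sites of all 3 GR-cell lists that the MR/GR cell lacked numbered 7, 5 and 3 in these windows and 2 at the locus. The share of GR-cell sites in at least 2 MR/GR-cell lists was 50%, 61.5% and 53.8% in them, on either side of the 55.6% of the locus. No gene is named for these windows, as an hg19 annotation was not used here.

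**Figure D3:**
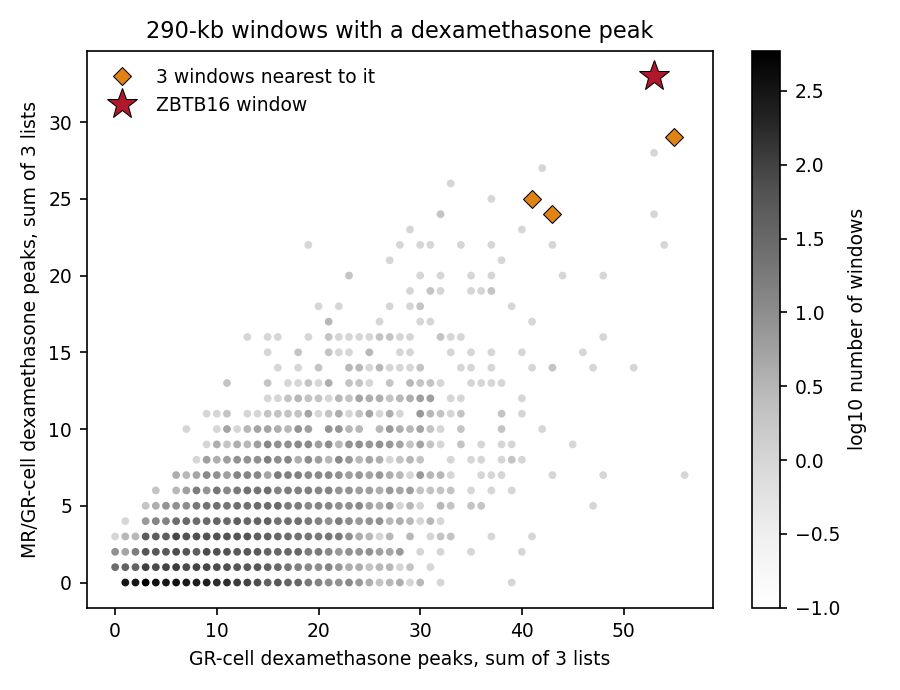
Each grey dot is a combination of peak counts found in tiled windows of 290 kb, as sums over the 3 dexamethasone lists of the MR/GR cell (y axis) and of the GR cell (x axis), shaded by the log10 number of windows. The star is the ZBTB16 window (33 MR/GR-cell and 53 GR-cell peaks) and the diamonds are the 3 windows nearest to it over all 12 lists.

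The position of the peak centres within a site was not used to choose the locus, so it could be compared between the lines. At the 8 sites of all 6 lists, paired centres lay on average 27.8 bp apart between the lines and 30.6 bp apart within a line (32.8 bp among MR/GR-cell lists and 28.4 bp among GR-cell lists). The difference of -2.82 bp was within what other splits of the same 6 lists gave (exact permutation p = 0.5, two-sided, 10 splits, smallest possible p 0.1). A shift of the peaks between the lines was not detected, and a test over 6 lists could not have passed 0.05. Over all 3017 sites of this kind in the genome the same 2 distances were 35.5 and 33.0 bp.

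Single sites differed in how closely their 6 centres agreed. The site at 114033539 was the tightest, with centres within 20 bp. Relative to the mean of the 6, its centres were at -10.2, 8.83 and -9.17 bp in MR/GR-cell lists 1, 2 and 3 and at -4.17, 9.83 and 4.83 bp in GR-cell lists 1, 2 and 3. The lines overlapped there, as they did at each of the 8 sites. The site at 114068671 was the loosest, with centres spread over 184 bp, at -23.5, -44.5 and 122.5 bp in the MR/GR-cell lists and -29.5, -61.5 and 36.5 bp in the GR-cell lists. In both lines list 3 lay toward higher coordinates there, and the lines overlapped. Over the 8 sites the median range was 51.5 bp, and the mean centre of the MR/GR cell minus that of the GR cell ran from -33.7 to 36.3 bp, toward higher coordinates at 6 sites.

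**Figure D4:**
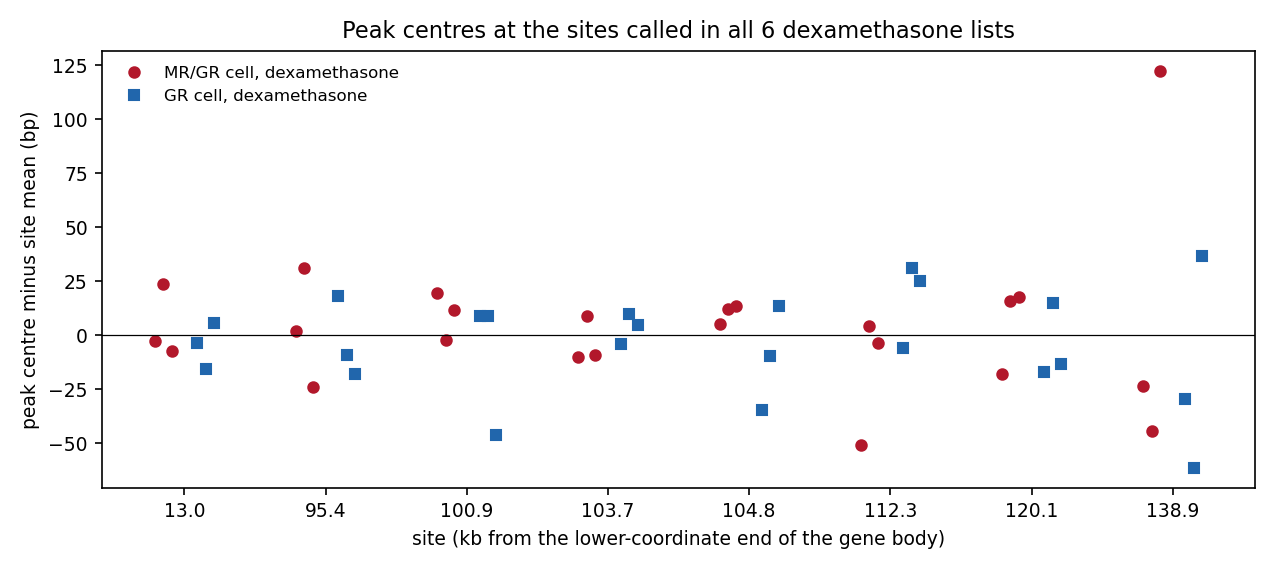
Centre of each peak in bp relative to the mean of its site, at the 8 sites called in all 6 dexamethasone lists, labelled by their distance in kb into the gene body. Circles are MR/GR-cell lists and squares GR-cell lists, 3 each. The ranges of the lines overlap at each of the 8 sites, with the widest spread, 184 bp, at 138.9 kb.

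The edges of the window passed through a thinly bound stretch below and a nearer site above. Just inside the lower edge was the site at 113882220, in 1 GR-cell list, and the closest site outside, 114 kb below the edge at 113766109 to 113766532, was in 2 MR/GR-cell and 3 GR-cell lists. Just inside the upper edge was the site at 114166869, in 1 GR-cell list, and the closest outside, 9.75 kb above the edge at 114179535 to 114179958, was in 0 MR/GR-cell and 3 GR-cell lists.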

How the data were processed

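The authors deposited 12 peak lists, 3 for each of the 4 immunoprecipitated samples, with a chromosome, start and end per peak in hg19; the 2 input samples were not analysed here. The submitters' processing notes name HOMER 4.8.3, Picard 1.115, SAMtools 1.3.1, Bowtie and Trim Galore 0.4, with no roles. By its name, each deposited list was called against input; the threshold is not given in the sources used here. All peaks of a list share 1 width, with 1 exception in the series, so wider lists merge more easily.

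Start positions were counted from 1. Overlapping peaks of all 12 lists were merged, and the merge matched bedtools 2.31.1 at all 43893 sites. The merging and the centre test were tested on simulated data. For a line to count as having a site, 2 or more of the 3 lists had to call it. The gene body was taken as the window without its 50 kb flanks. Sites in all 6 dexamethasone lists, sites in 3 lists of 1 line and none of the other, and at most 8 further sites, those in most lists first, were to be named, and single-list sites are listed with them. The window, lists and tests were chosen with earlier results of these data known. No sequence of the locus was used here. Python 3.11.15, numpy 2.4.6, SciPy 1.17.1 and matplotlib 3.10.9 were used. Alternatives were other merging and list criteria, a window without flanks, other tilings, leaving out each list, blocking on list number, and 0.5 as pseudocount.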

Additional observations from a re-analysis of the deposited data

How the results depend on the processing

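Of 110 alternatives, 108 kept the value by the criterion set for it. The criterion was its spread, its interval or a factor of 1.5. For the centre test it was the same sign with p not under 0.05. For the 18 alternatives on named sites it was an unchanged difference between the lines in number of lists. Many of the 108 could not fail. By arithmetic, a mean or log2 difference without 1 of 3 lists stays within the SD used, and a block on list number returns the same difference. A count of 1 line's sites can hardly change when a list of the other line is left out. The 108 is therefore not a measure of stability. The centre test cannot pass 0.05, so its p says nothing of stability. Without the flanks, the GR-cell value per 1000 peaks was 0.456, against 0.556 with them, since flank peaks were left out. With the tiling shifted by 0.5 of a window, the locus ranked 2 in the GR cell, in place of 4. Leaving out 1 list gave log2 differences between the lines of -0.77 to -0.46 in peaks and 1.3 to 1.86 per 1000 peaks. It gave 52.9% to 69.2% for the share of GR-cell sites in the MR/GR cell, 8 to 10 sites of both lines and 12 to 18 sites of the GR cell, lowest without GR-cell list 1. The genome background of that share ran from 10.5% to 22.0%. The centre difference ran from -4.49 to -0.28 bp, with exact permutation p between 0.2 and 0.9. In a replicate block on list number the differences are -0.62 and 1.62 by arithmetic, and only their SD is new, 0.383 and 0.527 over 3 pairs. Same-numbered treated lists correlated at 0.103, -0.0249 and -0.00675 in their deviations over all dexamethasone sites, so the numbers were not taken to pair the lines. All 18 named sites with more than 1 list kept their lists with centres at most 100 bp apart. With peaks up to 500 bp apart merged, the locus had 23 sites in place of 24, as those at 113981636 and 113982155 joined. The joined site was in all 6 dexamethasone lists. It then counts with the 8 sites of that kind, and no longer among the single-list sites or those missing from 1 GR-cell list. Unknown read depth and missing scores limit every count.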

Other observations

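The vehicle peaks nearest to the ZBTB16 window were few and mostly distant. Vehicle lists held 8, 0 and 4 peaks on chromosome 11 in the MR/GR cell and 9, 17 and 20 in the GR cell. The nearest of all, in GR-cell vehicle list 2, lay 0.235 Mb below the window at 113644498 to 113644849. In MR/GR-cell vehicle list 1 and GR-cell vehicle lists 1 and 3 the nearest peaks lay 4.14 Mb above it and overlapped each other, at 118306879 to 118307160, 118306906 to 118307201 and 118306787 to 118307136.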
